A study of Mus musculus with 50 samples.

Results

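Peri-injured lung regions of an ozone-exposed mouse were compared with healthy regions of an air-exposed mouse in the CD45- segments, the part of each region outside the immune cell stain. The comparison holds 8 of the 48 tissue segments measured: regions 5, 6, 7 and 15 of the ozone section and regions 8, 10, 11 and 12 of the air section. Both mice were 12 weeks old and labelled SP-C wild type, were housed in a germ-free facility, and differed by exposure. The ozone mouse breathed 0.8 ppm ozone for 3 h and its lungs were taken 72 h later, and the control mouse breathed filtered air. The air samples were taken as air from their titles, although their treatment label reads as ozone exposure. The injured regions of the ozone section were left out of the comparison. The series also holds CD68+ (macrophage) segments of the same regions. It further holds sections of SP-C mutant mice, young (12 weeks) and old, all exposed to ozone in the same way. Both are used here as described where they appear.

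Ozone is an oxidant gas that injures the lining of the small airways and the adjoining alveoli. In rodents, ciliated airway cells and the flat alveolar type 1 cells are known to be the most readily damaged, and surviving type 2 and club cells divide to replace them. Macrophages and other leukocytes gather at such sites, so lung tissue beside a lesion is commonly examined separately from its immune cells. GeoMx digital spatial profiling reads the RNA of chosen regions through probes that carry a cleavable barcode. A stain divides each region into segments, and the barcodes released from a segment are counted by sequencing.

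Each arm was 1 section with 1 study identifier, taken as 1 animal. The 4 regions of an arm therefore share an animal, and their SD is the spread within 1 section. No p-value was computed, and exposure cannot be told apart from the mouse. Both sections lay on the same slide and were collected on the same plate, and all libraries were sequenced in 1 run, per the file headers and the deposited worksheets. The criteria for judging a region healthy or peri-injured are not stated in the labels used here. Identifiers of probes were not paired with gene names in the files or reference tables. Identifiers are therefore given as deposited, without a role, and the cell types of the segments could not be checked against marker genes.

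The ozone segments were deeper than the air segments. Total counts were 118350, 105832, 109561 and 103077 in peri-injured regions 5, 6, 7 and 15. They were 37796, 47409, 54656 and 32705 in air regions 8, 10, 11 and 12. The arms did not overlap, and their means stood at a ratio of 2.53 (109205 ± 6650 against 43142 ± 9803, SD, n = 4 regions each). The captured area overlapped between arms, at 18391 to 26770 against 9480 to 21147 in the unit of the worksheets, which print none. Counts per unit of area did not overlap, at 5.06 ± 1.05 (SD, n = 4) after ozone and 3.26 ± 0.495 (SD, n = 4) in air, a ratio of 1.55. Duplicate reads, those past the first of each molecule, made up 93.9% to 94.5% of reads after ozone and 93.5% to 94.2% in air. Fewer cells in a segment and less RNA per cell cannot be told apart in such bulk captures.

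**Figure D1:**
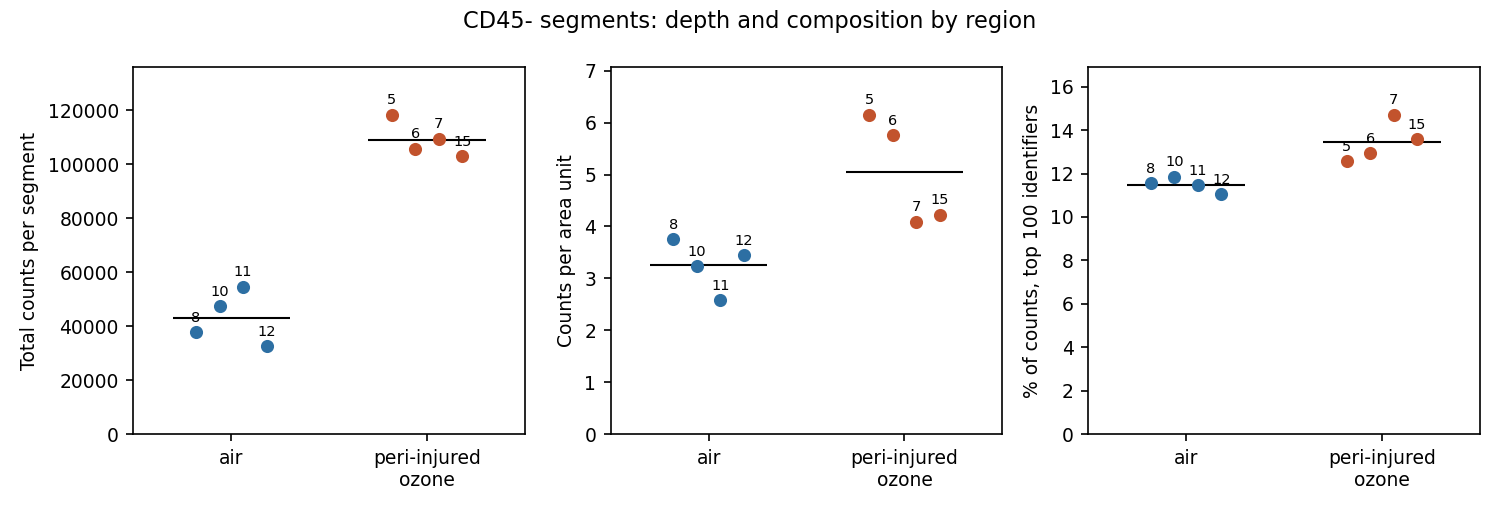
Total counts, counts per unit of area and percent of counts taken by the 100 most abundant identifiers in each CD45- segment. Points are regions, numbered as in the labels, and lines are arm means. The 4 ozone segments lie above the 4 air segments in every panel, with totals from 103077 against at most 54656.

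Counts were also more concentrated after ozone. The 100 most abundant identifiers took 12.6% to 14.7% of counts in the ozone segments and 11.0% to 11.9% in the air segments. The 10 most abundant took 5.73% to 7.12% and 5.10% to 5.52%. At equal depth, with every segment thinned to 32705 counts, the top 100 took 12.6% to 15.1% and 11.0% to 11.9%, again without overlap. The number of identifiers with at least 1 count was higher after ozone as deposited, at 18952 to 19355 against 13925 to 16869. Thinning turned that order, to 13287 to 13559 after ozone against 13894 to 13972 in air.

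Regions of the ozone section resembled one another more than regions of the air section did. Over 732 identifiers, Pearson's r of log2 CPM was 0.877 to 0.917 in the 6 pairs of ozone regions and 0.694 to 0.792 in the 6 pairs of air regions. It was 0.683 to 0.754 in the 16 pairs across arms. After thinning the ranges were 0.764 to 0.802 within ozone, 0.708 to 0.767 within air and 0.658 to 0.694 across arms. As deposited, pairs across arms overlapped with pairs of air regions but not with pairs of ozone regions. After thinning, ozone and air pairs overlapped, and every pair across arms lay below every pair within an arm. These correlations are across identifiers, which are not independent replicates, and the 4 regions of an arm share a section. The 732 identifiers were also kept by a filter on low counts in these same segments. Of them, 260 reached its level in all 4 ozone regions but under 4 air regions, and 23 did the reverse. The comparison of pairs within and across arms is therefore not free of that choice.

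The sizes of the differences were described by a fixed rule. Levels are counts scaled to a common library size of 1000000 (CPM) on library sizes scaled by TMM, edgeR's trimmed mean of ratios. An identifier was called when the arm means of log2 CPM were 1 or more apart and no region of one arm overlapped the other arm. Of 732 identifiers that passed the filter on low counts, 77 were higher after ozone (10.5%) and 3 were lower (0.41%). With no overlap alone as the rule, 198 were higher (27%) and 7 lower (0.956%). The split depended on scaling: 38 higher (4.95%) and 8 lower (1.04%) of 768 with upper quartile factors, and 35 higher (4.69%) and 10 lower (1.34%) of 746 with total counts only.

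Scaling and depth moved together. The TMM factors were 0.872 to 0.909 in the ozone segments and 1.01 to 1.22 in the air segments, highest in air region 12, the shallowest. After thinning to equal depth all 8 factors lay between 0.994 and 1.00. As deposited, the median difference over all 732 identifiers was 0.45 on the log2 scale, its quartiles were 0.17 and 0.78, and 620 identifiers (84.7%) had a positive difference. For the same identifiers that median was 0.24 with upper quartile factors, 0.18 with total counts and 0.10 after thinning. A difference below is therefore to be read against a general shift of 0.45. When the median was subtracted, 28 identifiers were higher and 6 lower.

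**Figure D2:**
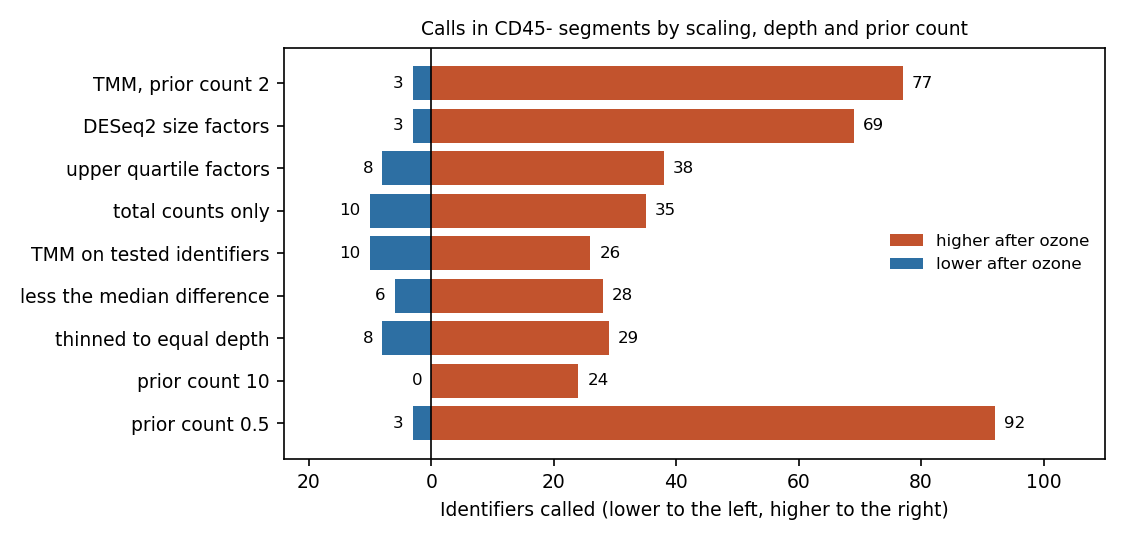
Numbers of identifiers called higher (to the right of 0) or lower (to the left) after ozone in CD45- segments, by scaling, depth and prior count. TMM gave 77 higher and 3 lower, and the same identifiers at equal depth gave 29 higher and 8 lower. A prior count of 10 gave 24 higher and 0 lower, and a prior count of 0.5 gave 92 higher and 3 lower.

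A core of 23 identifiers was called higher under each of 5 settings applied to the same 732 identifiers: TMM, upper quartile, DESeq2 and total-count scaling, and TMM after thinning. Their differences were 1.31 to 3.31, with a median of 1.80, and their mean levels after ozone were 230 to 6088 CPM. The largest differences, 3.31, 3.19 and 3.01, rested on only 5, 5 and 8 counts over the 4 air regions. All 23 were also called with each of the 8 regions left out in turn, whereas 50 of the 77 were. Leaving a region out makes the rule of no overlap easier to meet, so mainly the size limit of 1 could fail. The core already lay at 1.31 or more, so its staying called adds little. The thinned setting is 1 random draw: in a second draw 18 of the 23 were called, and all 23 differences were positive, the lowest at 0.87. Of the 23, 14 had at least 20 counts summed over the 4 air regions. Of the 3 lower identifiers, 2 were called under all 5 settings. With each region left out in turn 1 of the 3 stayed called throughout, and it was not among those 2. Without air region 10 there was 1 lower call in all, and without ozone region 7 there were 2, against 3 or 4 without any other region.

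The 54 higher identifiers outside that core differed by 1.00 to 1.62, with a median of 1.16. All 8 identifiers that differed by at least 2 were core members. The core was chosen by the same limit under settings with lower median differences, so its larger differences follow in part from that choice. Low counts in air occurred in both sets: 5 of the 23 and 2 of the 54 had at most 10 counts over the air regions, with medians of 24 and 20. Differences of all 77 ran from 1.00 to 3.31 with a median of 1.26. A further 21 identifiers differed by at least 1 but overlapped between arms, and the nearest identifier without overlap lay just outside, at 0.9992. The median of the 77 was 21 counts summed over the air regions and 128 over the ozone regions. The filter asked for about 134 CPM, or 10 counts in a segment of median depth, in 4 segments. That level was reached in no air region by 28 of the 77 and in all 4 air regions by 18. An identifier that passed through its ozone regions alone had to be higher there. This holds for the core as well, since its 5 settings used the same identifiers that passed this filter. Mean air levels of core members ran from 24.2 CPM (RTS0081052) to 1350 CPM (RTS0070870), on both sides of the filter level. Among the 271 identifiers at that level in all 4 air regions, 18 were higher (6.64%), the 3 lower ones were all included, and the median difference was 0.33. The reverse limit applies to them: an identifier that passed through its air regions alone had to be lower after ozone. RTS0081264 passed in that way, with at most 64.1 CPM in any ozone region. The 271 were chosen by their air level, so their values are not free of the filter either.

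Higher calls were spread over all levels of abundance as deposited and less so at equal depth. In the 244 identifiers of lowest, the 244 of middle and the 244 of highest mean CPM, 18, 28 and 31 were higher (7.38%, 11.5% and 12.7%). After thinning, 2, 11 and 16 were higher. The median differences in these classes were 0.44, 0.42 and 0.52 as deposited and 0.06, 0.08 and 0.17 after thinning. Over the 3 classes, 29 identifiers were higher and 8 lower after thinning, of which 28 and 2 were among the 77 and 3.

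**Figure D3:**
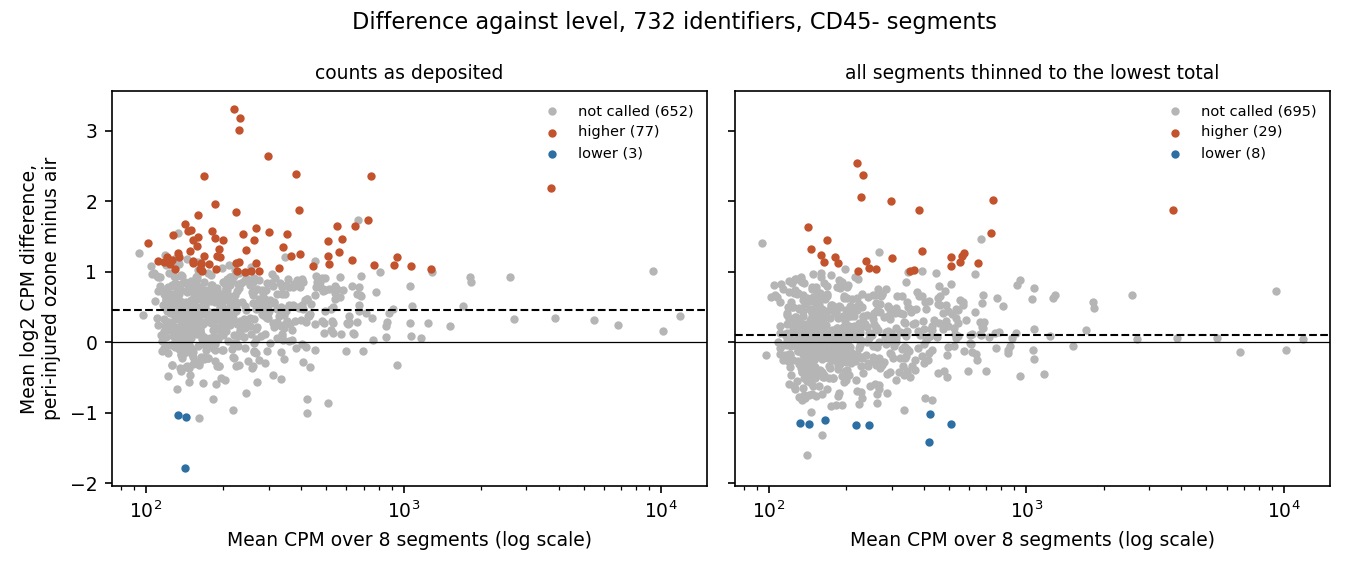
Mean log2 CPM difference, peri-injured ozone minus air, against mean CPM over the 8 CD45- segments on a log axis, for 732 identifiers as deposited (left) and thinned to equal depth (right). The dashed line is the median difference, 0.45 on the left and 0.10 on the right, and coloured points are the calls, 77 higher and 3 lower against 29 higher and 8 lower.

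RTS0064861 had the largest difference among the more abundant higher identifiers with at least 20 counts in air. Its level was 771, 817, 534 and 523 CPM in peri-injured regions 5, 6, 7 and 15, from 82, 78, 51 and 49 counts. In air regions 8, 10, 11 and 12 it was 90.1, 78.7, 145 and 100 CPM, from 4, 4, 8 and 4 counts. The lowest ozone region thus lay above the highest air region by a wide margin, with regions 5 and 6 above regions 7 and 15. The means were 661 ± 155 and 103 ± 28.8 CPM (SD, n = 4 regions each), a log2 difference of 2.39. Summed over an arm, 260 counts gave 665 CPM (95% exact Poisson interval 587 to 751) and 20 counts gave 105 CPM (64.1 to 162). These intervals cover counting error only. Over all alternatives the difference stayed between 1.72 and 2.72.

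RTS0064439 was the other identifier named by that rule. It stood at 1420, 1467, 1120 and 1036 CPM in peri-injured regions 5, 6, 7 and 15, and at 135, 276, 253 and 250 CPM in air regions 8, 10, 11 and 12. Again regions 5 and 6 were the highest ozone regions, and all 4 were above all air regions. The means were 1261 ± 215 and 229 ± 63.3 CPM (SD, n = 4 each), a log2 difference of 2.36. They rest on 495 and 44 counts, and the difference was 1.77 to 2.51 over the alternatives.

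RTS0070870 was the most abundant of the 23 identifiers. Its CD45- levels were 5575, 7085, 6676 and 5018 CPM in regions 5, 6, 7 and 15 and 1081, 2067, 1175 and 1077 CPM in air regions 8, 10, 11 and 12. Air region 10 stood above the other air regions but far below the lowest ozone region. The means of 6088 ± 957 and 1350 ± 480 CPM (SD, n = 4 each), from 2377 and 261 counts, differed by 2.19 on the log2 scale. It took 0.456% to 0.639% of all counts in the ozone segments and 0.119% to 0.221% in the air segments.

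On the lower side, the rule for named identifiers gave none, and the following pair was chosen after its values were seen, as the pair with the most negative differences among the 3 called lower. RTS0081264 had 28.2, 62.9, 41.9 and 64.1 CPM in peri-injured regions 5, 6, 7 and 15 and 203, 236, 271 and 225 CPM in air regions 8, 10, 11 and 12. All air regions lay above all ozone regions. The means were 49.2 ± 17.3 and 234 ± 28.5 CPM (SD, n = 4 each), a log2 difference of -1.79. The counts behind them were 19 over the deeper ozone segments and 45 over the shallower air segments, so the higher level in air was not limited to the CPM scale. With each region left out in turn it stayed called. At equal depth few counts were left and the draw decided its call. In the first draw, peri-injured region 6 had 4 counts and air region 10 had 3, so the arms overlapped, at a difference of -1.60. In a second draw the ozone regions had 1 to 3 counts and the air regions 7 to 9, without overlap, at a difference of -1.52.

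RTS0064971 had 103, 147, 73.2 and 32.0 CPM in peri-injured regions 5, 6, 7 and 15 and 203, 236, 181 and 175 CPM in air regions 8, 10, 11 and 12. The arms did not overlap, with ozone region 15 the lowest. The means of 88.9 ± 48.4 and 199 ± 27.6 CPM (SD, n = 4 each) differed by -1.06, from 35 and 38 counts. Its difference was called under all 5 settings, but was under the limit at -0.76 without ozone region 15 and at -0.94 without air region 10. It ranged from -1.51 to -0.59 over all alternatives.

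RTS0076055 was not called here. Its mean was 26987 CPM in the injured CD45- regions of the young mutant section and 335 CPM in the wild type injured regions, on factors over all 24 CD45- segments. In the compared arms it had 75.2, 31.4, 94.2 and 171 CPM after ozone and 113, 236, 145 and 426 CPM in air, in the same order of regions. The arms overlapped, since ozone region 15 exceeded air regions 8 and 11. The means were 92.9 ± 58.2 and 230 ± 141 CPM (SD, n = 4 each), a log2 difference of -1.08.

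**Figure D4:**
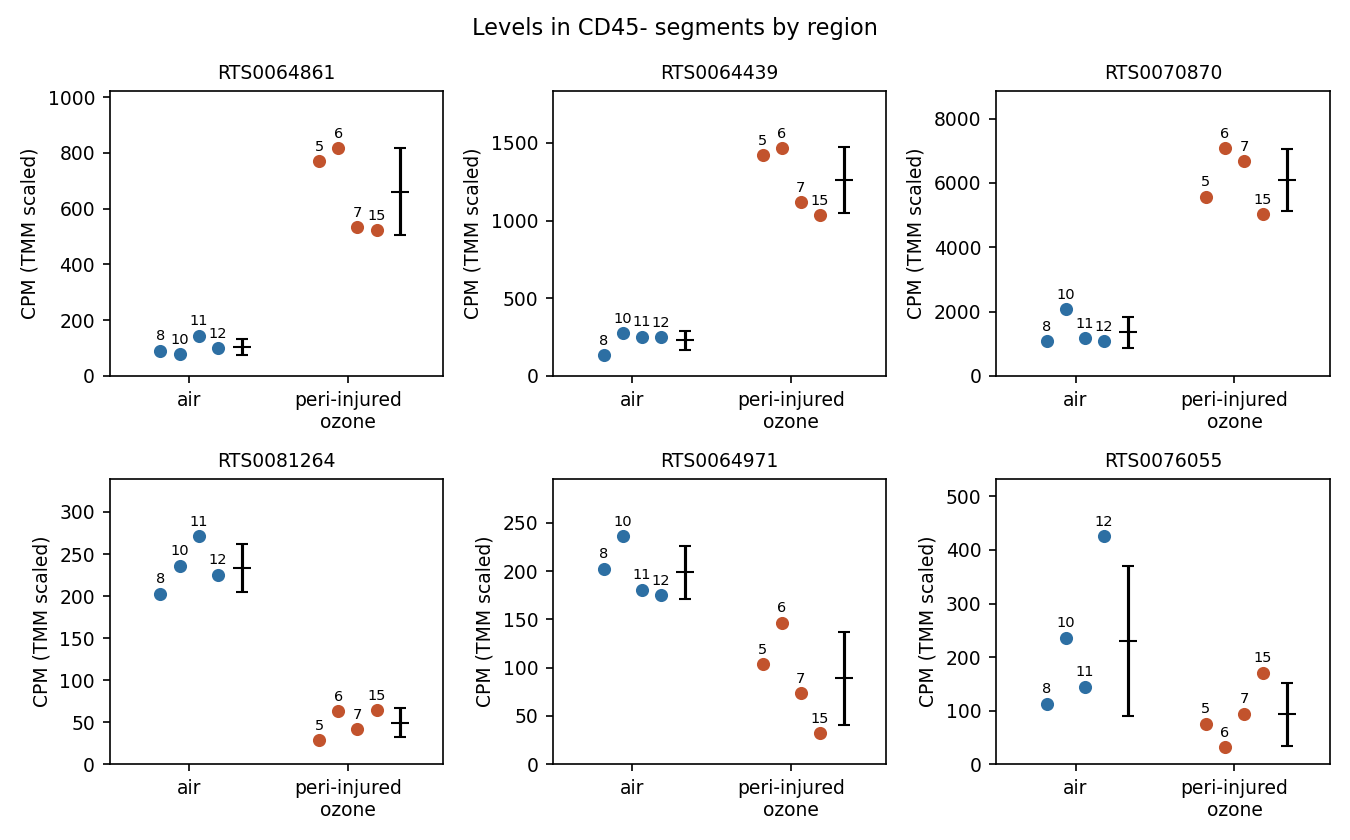
CPM on TMM-scaled library sizes of 6 identifiers in the CD45- segments. Points are regions, numbered as in the labels, with the arm mean and SD (n = 4 regions of 1 section) beside them. RTS0064861, RTS0064439 and RTS0070870 are higher in all 4 ozone regions, RTS0081264 and RTS0064971 in all 4 air regions, and RTS0076055 overlaps between arms.

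The same identifiers were read in the other CD45- segments, on factors taken over all 24 such segments. In the injured regions of the same ozone section RTS0064861 was 433 ± 92.8 CPM (SD, n = 4), against 614 in the peri-injured and 95.1 in the air regions on that scale. In the 4 mutant groups (injured and peri-injured, young and old), all exposed to ozone, its means were 87.5 to 113 CPM, close to the air section. RTS0064439 was 1089 ± 172 CPM (SD, n = 4) in wild type injured regions, against 1170 and 210 in the compared arms. Its means were 151 and 209 CPM in the young mutant groups and 330 and 431 CPM in the old ones. RTS0070870 was 5084 ± 1370 CPM (SD, n = 4) in wild type injured regions and 1109 to 2424 CPM in the mutant groups, against 5654 and 1238. RTS0081264 had another order: 56.2 ± 8.81 CPM (SD, n = 4) in wild type injured regions and 62.1 to 80.1 CPM in the mutant groups, with 45.7 in peri-injured and 215 in air. RTS0064971 was 79.2 ± 18.2 CPM (SD, n = 4) in wild type injured regions, against 82.4 and 182. Its means were 216 and 246 CPM in the young mutant groups and 164 and 173 CPM in the old ones. Genotype cannot be told apart from plate, since mutant and wild type sections lay on different plates, and injured regions share the animal of the peri-injured ones. The young and old mutant groups come from different sections, so age cannot be told apart from the section.

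The CD68+ segments of the same regions are separate libraries of the same 2 animals, and they had no part in choosing the CD45- calls. Their totals overlapped between arms, at 43955 to 70051 counts after ozone and 24253 to 58042 in air. Of the identifiers tested there, 30 were higher after ozone (9.01%) and 3 lower (0.901%). The filter was taken on these CD68+ segments. Its level was reached in no air region by 14 identifiers tested, and all 14 were called higher. Of the 30, 10 reached it in all 4 air regions. An identifier that passed through its ozone regions alone had to be higher there, so the shares called in CD68+ segments are not free of that choice. Upper quartile factors gave 14 higher (3.46%) and 5 lower (1.23%), and total counts gave 18 higher (5.45%) and 4 lower (1.21%). Of the 77 identifiers higher in CD45- segments, 39 passed the filter in CD68+ segments. Of these, 37 had a positive CD68+ difference, 7 were called higher (17.9%) and 0 lower. Among all 294 identifiers tested in both segment types, 205 had a positive CD68+ difference, 18 were called higher (6.12%) and 2 lower. The median CD68+ difference of the 39 was 0.67, against 0.24 over the 294 and 0.25 over all identifiers tested in CD68+ segments. Of the core of 23, 13 were tested in CD68+ segments and 5 were higher (38.5%), with a median of 0.99. The 7 shared calls are 9.09% of the 77 and 23.3% of the 30. Both segments of a region come from 1 animal, so these values do not add animals.

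**Figure D5:**
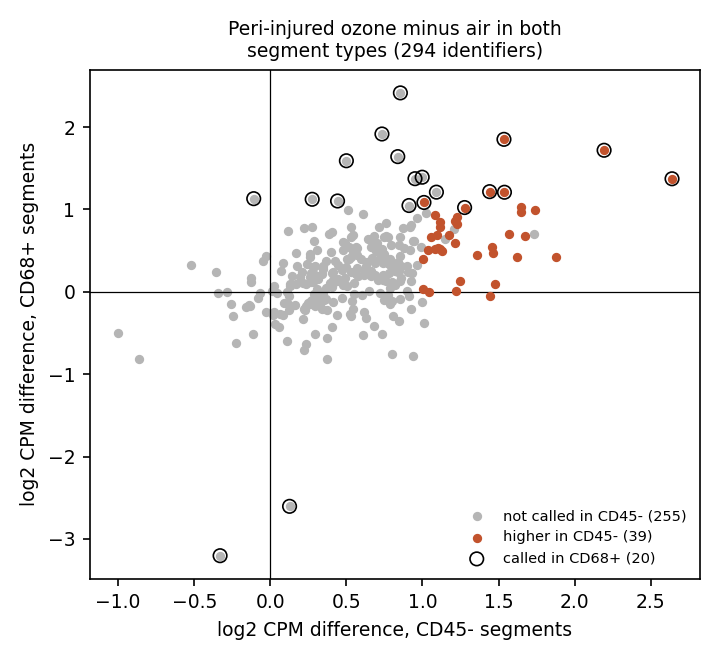
Log2 CPM difference, peri-injured ozone minus air, in CD45- segments (horizontal) and CD68+ segments (vertical) for the 294 identifiers tested in both. Orange points are the 39 higher in CD45- segments and rings are those called in CD68+ segments, of which 7 coincide.

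The pair named as higher in CD45- segments overlapped between arms in CD68+ segments. RTS0064861 was 164 ± 71.6 CPM after ozone and 91.6 ± 9.18 CPM in air in CD68+ segments (SD, n = 4 each), with overlap. RTS0064439 was 426 ± 158 and 154 ± 51.5 CPM there (SD, n = 4 each), and overlapped by 1 ozone region at 204 CPM against an air region at 207. RTS0081264 was lower after ozone there as well, at 29.2 ± 23.5 against 138 ± 25.6 CPM (SD, n = 4 each) without overlap, from 6 and 23 counts, but did not pass the filter. RTS0070870 was named by the rule in CD68+ segments, at 2685 ± 504 against 800 ± 217 CPM (SD, n = 4 each), a difference of 1.72. RTS0066938, the other so named, was 3706 ± 418 against 659 ± 80.3 CPM in CD68+ segments (SD, n = 4 each), a difference of 2.42. In CD45- segments it was 605 ± 40.3 and 324 ± 42.4 CPM (SD, n = 4 each), a difference of 0.85 without overlap, under the limit of the rule. The differences between segment types were not tested.

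Since marker genes could not be named, lists of identifiers were taken from the mutant sections, which share no animal with the compared arms. A macrophage-segment list held the 7 identifiers at least 1 log2 unit higher in CD68+ than in CD45- segments with the same sign in all 12 mutant regions. Of these, 2 passed the filter here and 0 were called, against 10.5% of all tested called higher, so 2 members are too few to read a share from. All 7 members together took 0.0567% to 0.0805% of CD45- counts after ozone and 0.0548% to 0.0768% in air, which overlapped. The part of macrophage RNA in the calls was not tested.

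The opposite list, 15 identifiers higher in the non-immune segments of the mutants, had 14 members tested, of which 3 were higher after ozone (21.4%, against 10.5% of all tested) and 0 lower. Of the 14, 10 had a positive difference, against 620 of all 732 identifiers tested (84.7%). The median difference of the 14 was 0.16, below the 0.45 of all identifiers tested, and the highest was 2.36. The median was -0.06 with upper quartile factors and -0.26 after thinning in 1 draw, but 0.0056 in a second draw and 0.0263 with the filter retaken after thinning. It was 0.40, 0.33 and 0.32 without air region 10, air region 11 or ozone region 7. The list took 1.03% ± 0.126 of counts after ozone and 0.600% ± 0.0712 in air (SD, n = 4 each), without overlap. Without RTS0070870, a member, the other 14 took 0.485% ± 0.0769 after ozone and 0.450% ± 0.0432 in air (SD, n = 4 each), and the arms overlapped. The 2 identifiers that were higher in injured than in peri-injured regions of both mutant sections differed by 0.85 and 1.30 between the arms here, and 1 was called. No identifier was lower in injured regions of both by the same rule.

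Some signals belonged to single regions. Of 1800 identifiers with at least 50 counts over the 8 segments, 12 had over 50% of them in ozone region 7, the largest with 523 counts there. Ozone regions 5, 6 and 15 had 3, 5 and 5 such identifiers, and air regions 8, 10, 11 and 12 had 3, 4, 2 and 1. These are counts not scaled for depth, so the deeper ozone segments reach such a share more easily than the air segments.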

How the data were processed

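The deposited values are raw counts of probe barcodes, with reads of the same molecular identifier counted once, made with the GeoMx NGS Pipeline 2.3.4, per the file headers. Formalin-fixed paraffin sections of 6 µm received antibodies to CD45 and CD68 and a DNA stain and were profiled with the mouse whole transcriptome probe kit, per the labels' protocols. Unlisted identifiers were set to 0. Of 20238 identifiers 20175 in 1 continuous range were analysed, and 63 outside it stayed out of library sizes. 0 identifiers matched a gene name, and no probe sequence was used here.

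Counts were scaled with TMM in edgeR 4.0.16 (R 4.3.3), filtered by filterByExpr (minimum count 10) and turned into log2 CPM with a prior count of 2. A call needed a mean difference of at least 1 and no overlap of regions. With 1 animal per arm no model was fitted. Thinning drew counts without replacement to the lowest total. On simulated counts, drawn with counting error alone, no changed identifier was called in the wrong direction. With no spread between regions such a call was hardly possible, so this says nothing about the calls here. In the simulation TMM shifted unchanged identifiers upwards and found fewer lowered than raised ones. With total counts, unchanged identifiers shifted slightly downwards, and the gap between raised and lowered ones found was smaller.

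Named identifiers were the 2 per direction with the largest difference among those called with at least 20 counts in the lower arm and a mean CPM above the median, plus RTS0076055. Members and lists were chosen with earlier results of these data known. Alternatives were other scalings (DESeq2 1.42.0 size factors among them), filters, prior counts, thinning and each region left out.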

Additional observations from a re-analysis of the deposited data

Results flagged for a closer look

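RTS0070870 in the CD45- segments of the air section had 1 region far from the other 3: air region 10 stood at 2067 CPM and its nearest neighbour at 1175, a gap of 0.901 of the whole range. It was the 1 such case among 42 groups of 4 regions examined, and chance gives about 1 in 20. Counts appeared outside the tissue segments: 1 no template control held 4 counts and the other, on the plate of the compared sections, held 229 counts over 221 identifiers. In the 8 CD45- segments, identifiers outside the analysed range held 26 counts in all.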

How the results depend on the processing

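No paired analysis was possible because the arms come from different sections and share no region number. Higher calls in CD45- segments (77) became 38 with upper quartile factors, 35 with total counts, 26 with TMM on the identifiers tested, 28 less the median difference, 24 with a prior count of 10, 309 of 20174 without the filter, and 164 at a 1.5-fold limit. At equal depth they were 16 of 191 with the filter retaken, 29 on the same identifiers and 20 with a second seed. Lower calls (3) became 8 with upper quartile factors, 10 with total counts or TMM on the identifiers tested, 6 less the median or at a 1.5-fold limit, 0 with a prior count of 10 and 20 without the filter. They were 8 on the same identifiers at equal depth and 9 with the second seed. They were 6 with a filter on 100 CPM, 12 on counts summed per section, 5 by size alone, and 10 without segments under 50000 counts, which leaves 1 air segment. The median difference (0.45) became 0.24 with upper quartile factors, 0.18 with total counts, 0.032 with TMM on the identifiers tested, 0.29 with a prior count of 10 and 0.21 without the filter. It was 0.22 on summed counts, 0.30 without segments under 50000 counts, and 0.20 (filter retaken), 0.10 (same identifiers) and 0.12 (second seed) in the thinned counts. In CD68+ segments the 30 higher became 14 with upper quartile factors, 18 with total counts, 11 with a prior count of 10, 15 less the median, and 8 or 13 thinned, and the 3 lower became 5 with upper quartile factors. The median of the non-immune list (0.16) became -0.26 thinned on the same identifiers, 0.0056 with the second seed and 0.0263 with the filter retaken. Apart from the settings that change the scaling or depth by construction, the cause was not tested. Leaving out 1 region at a time gave 78 to 107 higher and 1 to 4 lower in CD45- segments, 28 to 37 and 2 to 3 in CD68+ segments, a median of 0.39 to 0.52, and 0.13 to 0.40 for the non-immune list. The 7 identifiers with values in the report kept the sign of their difference under all alternatives run.

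Depth limits the air segments: 3 of 4 were under 50000 counts with a median of 1 or 2 counts per identifier, so most of the 20175 identifiers could not be compared.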
